A study of Zea mays with 5 samples.

Results

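The cytosines described here are the outer cytosines of CCG, the first C of a C-C-G triplet on either strand, within 1 stretch of maize chromosome 9 (build B73 RefGen_v3, per the submitters' processing notes). They were taken as every CHG entry followed by C (H stands for A, C or T) with at least 5 reads. This gave 1452 of the 2329 CCG cytosines in the deposited methylation map, which holds 43778 cytosines in all, and the other 877 CCG cytosines had 3 or 4 reads. The library came from young leaves of the Derivative 3-3 genotype, for which the series title names a de novo centromere. Nuclei were cut with micrococcal nuclease, chromatin was recovered with a rabbit antiserum against peptides of maize CENH3, the centromeric form of histone H3, and the DNA was bisulfite-treated before Illumina sequencing. Bisulfite leaves methylated C as C and turns unmethylated C into a base read as T, so the level of a cytosine is the share of its reads that show C. All reads thus come from CENH3 precipitate, and no other material of Derivative 3-3 and no control plant was measured for methylation. The 4 RNA-seq libraries (seedling and leaf, with and without Derivative 3-3, 1 library each) were not analysed here.

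Plants keep CG methylation through replication with a maintenance methyltransferase that reads the CG on the opposite strand. CHG methylation is kept by chromomethylases, which bind histone H3 carrying the heterochromatic lysine mark, and at CAG and CTG the opposite strand offers the same kind of site. CCG differs, since the base opposite its last G is a C in CG context, so the triplet carries an outer CHG cytosine directly beside an inner CG cytosine. In Arabidopsis, the outer cytosine of CCG is known to lose methylation when the CG maintenance enzyme is lost as well as when the CHG enzymes are lost.

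The bases around the sites on which the results turn are given next, as far as the rows of the map and their stated contexts determine them. N marks a base that no row gives, the CCG or CCGG is in capitals, and each sequence runs 5′ to 3′ on the strand of its CCG. The first trio had little outer methylation beside a methylated inner CG, and the next one is the only site called in the opposite direction. The last pair are nearby CCGG sites, with another CCGG between them. Their differences between strands were the largest among those with at least 10 reads on each. All the printed stretches lie on chromosome 9, at chr9:4457560-4457592 (plus strand), chr9:4459523-4459555 (minus), chr9:4378917-4378949 (minus), chr9:4578454-4578486 (plus), chr9:4459557-4459589 (plus) and chr9:4459576-4459608 (plus), in the order shown. Positions are those of the map, and whether it counts from 0 or 1 is not stated.
Outer C at 4457575: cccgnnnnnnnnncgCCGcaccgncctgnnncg
Outer C at 4459540: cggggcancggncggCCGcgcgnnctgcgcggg
Outer C at 4378934: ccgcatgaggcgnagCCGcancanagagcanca
Outer C at 4578469: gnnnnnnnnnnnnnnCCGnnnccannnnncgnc
CCGG from 4459572: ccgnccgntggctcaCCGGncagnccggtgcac
CCGG from 4459591: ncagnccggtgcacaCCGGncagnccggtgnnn
The first 3 triplets are all followed by C, a feature taken up with the neighbouring bases. They are a selection from the sites with the lowest p-values named below, and not all of those are followed by C. The site at 4475208, not printed here, is followed by G, with 0 of 11 outer and 12 of 12 inner reads methylated. The site at 4555169, also not printed, is followed by C.

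The outer cytosines were methylated in 51.3% of reads (6521 of 12703, Wilson 95% interval 50.5 to 52.2), whereas CAG stood at 76.2% (75.6 to 76.9, 1790 cytosines) and CTG at 75.3% (74.6 to 75.9, 1865 cytosines). The 1452 CCG cytosines, 28.4% of all CHG cytosines at this depth, had between 5 and 28 reads each, the median being 8. There was 1 library and no replicate for any value. Reads carry no molecular identifiers and 1 read spans several cytosines, so every interval and p-value here covers counting error only and p-values over pooled reads are too small. The forward strand stood at 52.2% (710 sites, 51.0 to 53.5) and the reverse strand at 50.5% (742 sites, 49.3 to 51.7), and these intervals overlap.

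Outer cytosines took intermediate levels far more often than their neighbours in other contexts. Among the 474 CCG cytosines with at least 10 reads, 72.2% lay between 20% and 80% methylated (Wilson 95% interval 68.0 to 76.0), 13.9% were at 20% or less (11.1 to 17.3) and the same number of sites, 66, were at 80% or more. Of the 1168 CAG and CTG cytosines at that depth, 59.7% were at 80% or more (56.8 to 62.5) and 32.8% lay between (30.2 to 35.5). The median site stood at 50% for CCG and at 81.8% for CAG and CTG. The intervals of these shares do not overlap between the classes. The intermediate share of CCG was 61.7% with a minimum of 5 reads and 80% in the 25 sites with 20 or more.

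**Figure D1:**
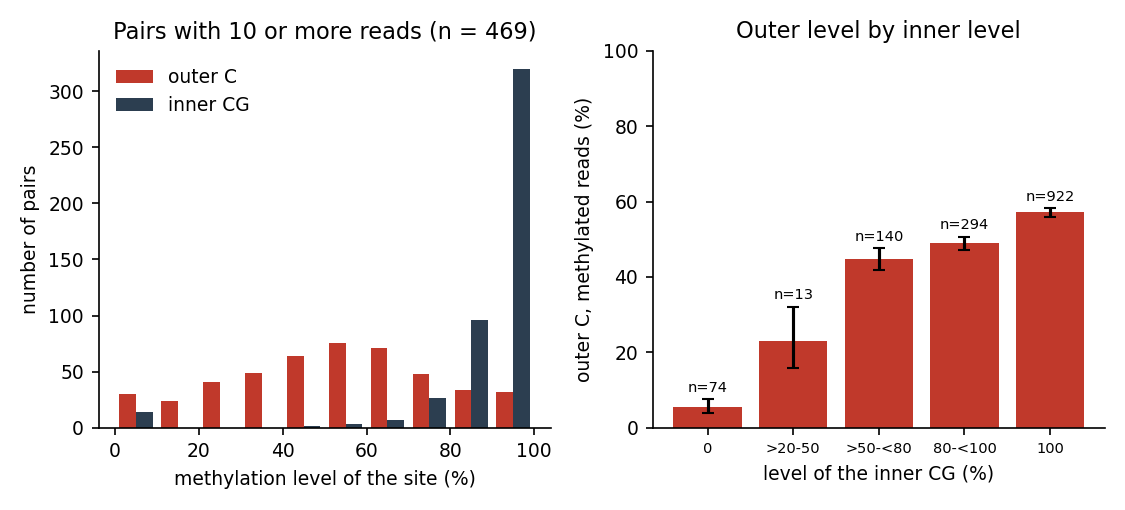
Left, number of CCG pairs (469 with at least 10 reads at both cytosines) by methylation level in steps of 10%, for the outer C and the inner CG. Right, methylated reads at the outer C (%, bars with Wilson 95% intervals, n pairs) by level of the inner CG. The inner CG piles up near 100%, the outer C is spread over the whole range, and the outer level rises from 5.44% at an unmethylated inner CG to 57.1% at a fully methylated one.

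The inner CG, the next base on the same strand, was far more methylated than the outer cytosine. Of 477 inner cytosines with at least 10 reads, 88.9% were at 80% or more and 8.18% lay between 20% and 80%. In 1443 pairs with at least 5 reads at both cytosines the outer level was 51.3% (50.5 to 52.2) and the inner level 88.9% (88.3 to 89.4), a difference of 37.5 percentage points. The remaining 9 inner cytosines had under 5 reads. The outer cytosine was lower than its inner CG in 1177 pairs, equal in 241 and higher in 25. Of the equal pairs, 69 were at 0 on both cytosines, 121 at 100% on both and 51 at a shared level in between. The median pair differed by 36.4 percentage points (quartiles 14.5 and 60).

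Total reads were the same at both cytosines in 1330 pairs (92.2%), as adjacent bases would have if the same reads covered them. If so, the counts set limits per read within each pair. Reads are counted here once per pair, so a read that spans several CCG enters more than once. At least 4364 of 11470 reads (38.0%) carried a methylated inner CG beside an unmethylated outer C. At least 54 reads (0.471%) carried the opposite combination. Of these, 31 came from the 5 pairs with an unmethylated inner CG and a methylated outer C, 17 of them at the site 4578469 printed above. How many more reads did so cannot be told from counts per cytosine.

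The test of each CHG cytosine against a CG was run over the whole map, with the inner CG as partner for CCG and the nearest same-strand CG within 50 bp for CAG and CTG. A cytosine was called at a Benjamini-Hochberg adjusted p of 0.05 in a two-sided Fisher's exact test, adjusted over all 4870 CHG cytosines tested. For CCG the test treated outer and inner counts as independent, so the sharing of reads within a pair was not used. Of the 1443 CCG pairs, 97 (6.72%) were called lower than their CG, against 2.71% of all CHG cytosines tested and 35 of 3427 CAG and CTG cytosines (1.02%). In the opposite direction 1 CCG pair was called, 0.0693%, against 0.123% of all CHG cytosines. At an unadjusted p under 0.05 the CCG numbers were 424 lower and 3 higher. Only 951 CCG pairs had the depth to pass even if fully opposite, and of those 10.2% were called lower, against 1.40% of the CAG and CTG cytosines that could pass. The CG partner of CAG and CTG lay at a median of 8 bp, and it exceeded them by 9.61 percentage points (85.6% against 76.0%). CAG and CTG were below that CG in 46.7% of cases, and CCG below its inner CG in 81.6%.

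The 5 lowest p-values among outer cytosines below their CG belonged to sites where nearly every read was methylated inside and unmethylated outside. At 4555169 the outer C was methylated in 4 of 23 reads and the inner CG in 23 of 23 (Fisher's exact test, adjusted p = 6.92e-06). At 4457575 it was 2 of 18 against 18 of 18 (adjusted p = 5.10e-05, exact test), and at 4459540 it was 1 of 17 against 16 of 17 (adjusted p = 0.000242, exact test). At 4475208 no outer read of 11 was methylated, which allows up to 27.3%, against 12 of 12 inside, and at 4378934 the counts were 1 of 14 against 14 of 14 (adjusted p = 0.000455 for both, exact test). Of these 5 sites, 4 were CCG followed by C. Of all 1452 CCG, 285 were followed by C, and the following base could not be placed for 495. Choice by p-value favours classes with low outer levels.

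The only pair called higher outside than inside was that at 4578469, with 17 of 18 outer reads methylated and 0 of 18 inner reads, which allows up to 16.7% (adjusted p = 6.92e-06, Fisher's exact test). The next 4 by p-value did not pass, at 6 of 8 against 0 of 8 (4560784, adjusted p = 0.121, exact test), 5 of 5 against 0 of 5 (4586237, adjusted p = 0.127, exact test), 2 of 5 against 0 of 5 (4416627) and 5 of 5 against 3 of 5 (4368887). The map lists no cytosine opposite the inner CG for any of the 5 pairs with inner CG at 0 and a methylated outer C. It lists one for 1017 of all 1443 pairs (70.5%) and for 42 of the 69 pairs at 0 on both cytosines. A row is also missing where the opposite strand has too few reads. A plant with T in place of the reference's inner C would also read as 0 inside, whether or not the opposite cytosine is listed. The part of such differences in these 5 pairs was not tested.

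The outer level went with the inner level but stayed well short of it. Of the 74 pairs with an unmethylated inner CG (0 of 573 reads, which allows up to 0.524%), the outer C was methylated in 31 of 570 reads, 5.44% (Wilson 95% interval 3.86 to 7.62), and all 31 came from 5 pairs, 4 of those just named and 4504880 (1 of 6 reads). The other 69 held no methylated outer read among 528, which allows up to 0.568%. No pair had an inner level above 0 and up to 20%. The outer level was 23.0% (15.8 to 32.2) in 13 pairs with an inner level above 20% and up to 50%, and 44.8% (42.0 to 47.6) in 140 pairs with one above 50% and under 80%. It was 48.9% (47.2 to 50.6) in 294 pairs at 80% or more but under 100%, and 57.1% (56.0 to 58.2) in 922 pairs with every inner read methylated. Across all pairs Pearson r was 0.42 and Spearman rho 0.30, as a description of sites from 1 library that share reads.

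A fully methylated inner CG left the outer level widely variable. In 253 such pairs with at least 10 reads at both cytosines the outer level ranged from 0 to 100% with a median of 55.6% (quartiles 40 and 72.7). Its SD over sites was 23.2 percentage points, whereas binomial counting at these depths and a common level of 56.5% gives 14.2. Of these sites, 20 were at 20% or less, 184 in between and 49 at 80% or more. At 5 or more reads, 43 of the 922 pairs had no methylated outer read at all and 121 had only methylated ones.

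The cytosine opposite each CCG, in the same CG as the inner cytosine, was also highly methylated. In the 745 CCG with at least 5 reads there, it stood at 90.2% (89.5 to 90.9) beside an outer level of 52.4%. Where both CG strands were at 80% or more the outer level was 56.1% (577 pairs, 54.7 to 57.4), and where the inner CG was at 80% or more and the opposite CG was below that it was 50.4% (62 pairs, 46.1 to 54.6). Those intervals cover counting error only, and the gap between them is narrow. The groups were not matched for inner level above 80%. Whether the outer level goes with the opposite CG apart from the inner CG was not tested.

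Along the region, the outer level followed the profile of the inner CG at a lower height. The CCG cytosines lay a median of 31 bp apart, with none between 4507362 and 4528418, a gap of 21056 bp. In the 23 windows of 10 kb (counted from the first listed position, 4301438) with at least 10 CCG cytosines, the outer level ran from 15.2% to 67.9% with a median of 52.0% and an SD of 13.5 percentage points. The inner level ran from 39.1% to 94.8%, and it exceeded the outer level in all 23 windows, by 35.6 ± 7.0 percentage points (SD over windows). The outer level was between 34.7% and 72.3% of the inner level in those windows. Outer and inner window levels had r = 0.90 and rho = 0.75 over 23 windows, and r = 0.80 without the 2 windows farthest from the median inner level. These are descriptions, since both cytosines come from the same reads.

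**Figure D2:**
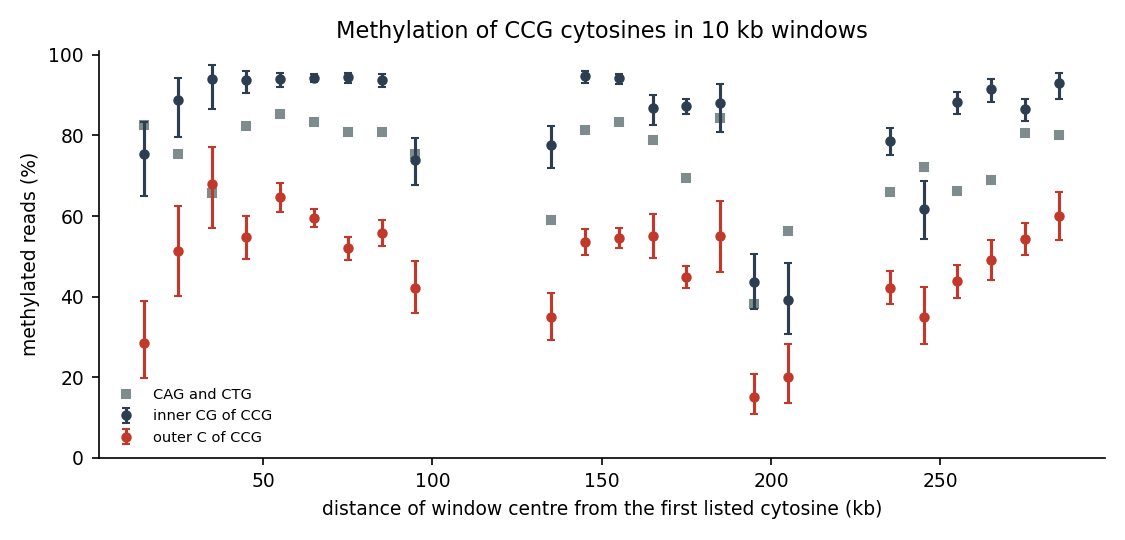
Methylated reads (%) in 10 kb windows with at least 10 CCG cytosines, for the outer C, the inner CG (both with Wilson 95% intervals) and CAG with CTG (squares, no interval), by distance of the window centre from the first listed cytosine (kb). The outer C lies below the inner CG in all 23 windows and is lowest at 195 kb, where they stand at 15.2% and 43.7%.

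Among the 18 windows with at least 20 CCG cytosines, the highest outer levels were 64.7% at 4351438 to 4361437 (60.9 to 68.2, 74 sites), 60.1% at 4581438 to 4591437 (54.0 to 65.9, 23 sites) and 59.5% at 4361438 to 4371437 (57.3 to 61.7, 222 sites). The lowest were 15.2% at 4491438 to 4501437 (10.8 to 20.8, 24 sites), 34.8% at 4431438 to 4441437 (29.2 to 41.0, 25 sites) and 35.1% at 4541438 to 4551437 (28.4 to 42.4, 25 sites). The inner CG was 94.0%, 92.9% and 94.3% in the high windows and 43.7%, 77.6% and 61.8% in the low ones, in the same order. The windows low outside were thus also lower inside than those high outside.

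The distance between outer and inner level was not constant. Among the windows with at least 20 CCG it was largest at 4551438 to 4561437, with 43.8% outside and 88.3% inside, a difference of 44.5 percentage points. It followed at 4431438 to 4441437 with 42.8 and at 4561438 to 4571437 with 42.6. It was smallest at 4541438 to 4551437 with 25.7, at 4491438 to 4501437 with 28.6 and at 4351438 to 4361437 with 29.3. The first 2 of these narrow windows had a low inner CG, whereas the last had 94.0% inside and the highest outer level of the 18. Of the 23 windows with at least 10 CCG, 16 had an inner level of 80% or more. In these the inner level varied by only 3.19 percentage points (SD) and the outer level by 6.27, from 43.8% to 67.9%. The 67.9% came from a window with 12 CCG cytosines (57.1 to 77.1). The part of counting error in these SDs was not tested.

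At 1 kb, no bin of outer cytosines was near full methylation. Of 68 bins with at least 8 pairs, 63 had an inner level of 80% or more, and in these the outer level ran from 32.6% to 72.5%. Over all 68 bins, 43 had an outer level from 40% to under 60%, 17 from 60% to under 80%, none at 80% or more, 6 above 5% and under 40%, and 2 at 5% or less. The highest were 72.5% at 4341438 to 4342437 (29 of 40 reads), 72.2% at 4344438 to 4345437 (39 of 54) and 72.2% at 4385438 to 4386437 (57 of 79, with 80 of 80 inner reads methylated). The lowest were 4545438 to 4546437 with 0 of 56 outer reads, which allows up to 5.36%, 4504438 to 4505437 with 1 of 60, and 4532438 to 4533437 with 21 of 79 (26.6%). The inner CG there was methylated in 2 of 56, 0 of 60 and 55 of 79 reads, so the third bin was low outside with most inner reads methylated.

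The 1 kb bins with little or no inner CG methylation and at least 3 pairs held almost no outer methylation. Taken after their values were seen, 5 bins with at least 3 pairs had an inner level of 5% or less, and their 35 pairs held 1 methylated outer read of 266 (0.376%, Wilson 95% interval 0.0664 to 2.10) and 2 methylated inner reads of 268. With any number of pairs, 14 bins met that level and held 3 methylated outer reads of 331 in 47 pairs. Of these 3 reads, 2 came from the single pair at 4416627, with 2 of 5 outer and 0 of 5 inner reads methylated, so its bin was an exception. The leftmost 10 kb window, with only 8 CCG cytosines, had 0 of 41 outer and 3 of 41 inner reads methylated, and 0 of 41 allows up to 7.32%, while its CAG and CTG cytosines stood at 33.0%.

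CCG was less methylated than CAG and CTG in nearly every window. Reads were pooled per 10 kb window and compared by two-sided Fisher's exact test, adjusted over the 23 windows with at least 10 cytosines of each class. CCG was called lower in 22 of 23 windows (95.7%), and in 0 windows was it called higher. The difference averaged 26.2 ± 9.6 percentage points (SD over windows). It was widest at 4311438 to 4321437, with 28.4% at 12 CCG and 82.6% at CAG and CTG. The exception was the next window but one, 4331438 to 4341437, with 67.9% at 12 CCG and 65.7% at 20 CAG and CTG cytosines (adjusted p = 0.768, Fisher's exact test).

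CCG levels followed those of the nearest CAG or CTG on the same strand within 50 bp. Beside a CAG or CTG at 20% or less, CCG stood at 14.4% (84 pairs, 11.9 to 17.4). Beside one between 20% and 80% it stood at 48.1% (445 pairs, 46.6 to 49.6), and beside one at 80% or more at 57.6% (746 pairs, 56.4 to 58.8). CCG was the lower of the 2 in 921 of 1275 such pairs and the higher in 178. Pearson r was 0.40, and 0.18 in the 816 pairs whose inner CG was fully methylated, again as a description.

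Likeness between outer cytosines was strongest within 50 bp, with little left beyond 500 bp. For pairs of same-strand CCG with the inner CG at 100%, r was 0.27 at 3 to 20 bp (258 pairs), 0.17 at 21 to 50 bp (333 pairs) and 0.0061 at 51 to 100 bp (351 pairs). It was 0.09, 0.06 and -0.06 at 101 to 200, 201 to 500 and 501 to 1000 bp. Over all CCG pairs it was 0.42 at 3 to 20 bp, 0.34 at 21 to 50 bp and 0.12 at 51 to 100 bp. It then stayed at 0.14 and 0.11 at 101 to 200 and 201 to 500 bp, and was 0.0024 at 501 to 1000 bp. Close neighbours lie on the same reads, and the part of shared reads in these values was not tested.

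The bases on either side of the triplet went with the outer level while the inner CG hardly moved. After the triplet, G gave 60.3% (289 sites, 58.4 to 62.2), A or T 52.1% (383 sites, 50.4 to 53.8) and C 38.2% (285 sites, 36.3 to 40.1). The inner CG was 90.6%, 90.0% and 90.1% in those classes. Before the triplet, C gave 57.5% (275 sites, 55.5 to 59.5), A, T or an unlisted base 52.1% (864 sites, 51.0 to 53.2) and G 44.1% (313 sites, 42.2 to 45.9), with the inner CG at 90.8%, 88.3% and 88.6%. None of the 3 intervals of the outer level overlap on either side. A base was read from the presence of a row at that position, so A or T means that neither strand lists a cytosine there, and 495 sites had too little coverage opposite to place the following base (53.0%).

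**Figure D3:**
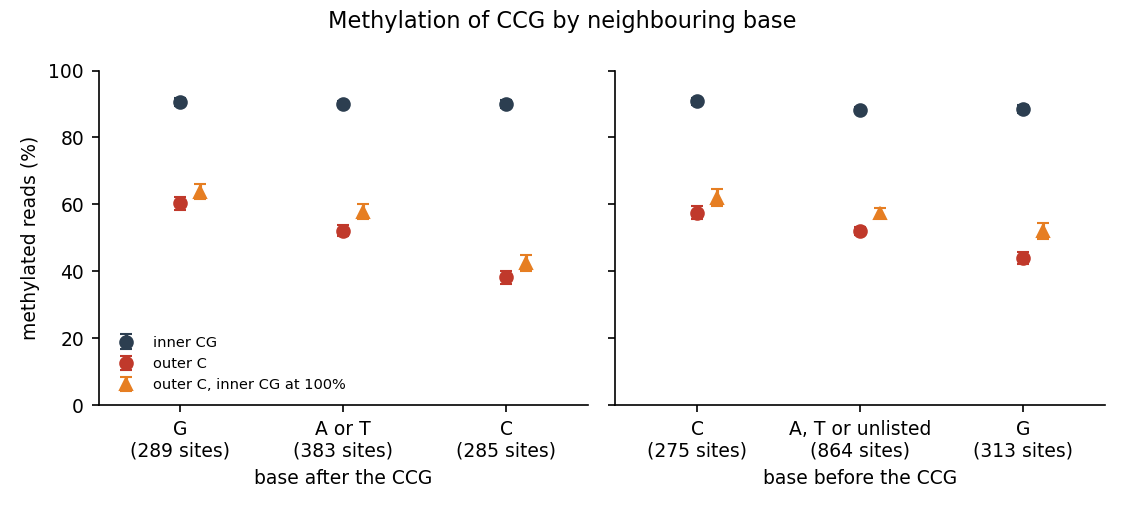
Methylated reads (%, points with Wilson 95% intervals) at the inner CG, at the outer C, and at the outer C of sites whose inner CG is at 100%, by the base after (left) and before (right) the CCG. The inner CG stays between 88.3% and 90.8%, while the outer C falls from 60.3% to 38.2% across following bases and from 57.5% to 44.1% across preceding bases.

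The same order held at sites with every inner read methylated, at 63.8% before G, 57.8% before A or T and 42.5% before C. The preceding base gave 62.1% for C, 57.4% for A, T or unlisted and 51.9% for G in such sites. With both sides known, the lowest level was 32.0% in 71 sites with G before and C after (28.5 to 35.7). Sites followed by G stood at 61.2% with C before (46 sites, 56.1 to 66.1) and at 62.3% with A, T or an unlisted base before (188 sites), but at 53.2% with G before (55 sites, 48.9 to 57.4, inner CG 83.6%). These levels pool windows, so the comparison was also made within 10 kb windows with at least 10 sites of each class, by two-sided Fisher's exact test adjusted over windows. CCG followed by C was called lower than other CCG in 5 of 6 windows (83.3%) and was lower in all 6, by 16.6 ± 7.4 percentage points. Preceded by G, it was lower in 8 of 9 windows, by 6.4 ± 4.4 percentage points, but was called in only 1 (11.1%), 4451438 to 4461437. Preceded by C, CCG was higher in 8 of 8 windows and called in 3 (37.5%), with a mean difference of 8.7 ± 10.8 percentage points and 34.1 in the widest. The comparison of neighbouring bases other than CCGG was chosen after the data were seen.

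With reads pooled over the region, CAG and CTG also stood lower when followed by C or preceded by G. This was not compared within windows. The opposite strand of a CAG or CTG followed by C is a CTG or CAG preceded by G, so these are not separate comparisons. CAG and CTG followed by C stood at 68.0% (953 sites, 67.0 to 69.0), against 78.5% when not (78.0 to 79.0). Preceded by G they stood at 69.3% (706 sites, 68.1 to 70.4), against 77.3% when not (76.8 to 77.8). For CCG the difference between sites followed by C and the rest was -16.4 percentage points (38.2% against 54.6%), and whether it differs from that in CAG and CTG was not tested. Calls against the inner CG followed the same order, with 37 of 284 CCG followed by C called lower (13.0%), 28 of 381 followed by A or T (7.35%) and 10 of those followed by G (3.47%).

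CCGG, whose sequence reads the same on both strands, places an outer cytosine on each. Its outer level was 60.3%, and that of other CCG with the opposite CG covered was 48.7% (526 sites, 47.3 to 50.2), while the inner CG stood at 90.6% in both. The CCGG sites are the same 289 sites as CCG followed by G above. The other class joins sites followed by A or T, at 52.1%, with lower ones followed by C. Within windows CCGG was called higher in 6 of 7 (85.7%), by 12.7 ± 10.7 percentage points over the 7. The exception was 4441438 to 4451437, with 51.0% against 58.6% (adjusted p = 0.0847, Fisher's exact test).

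**Figure D4:**
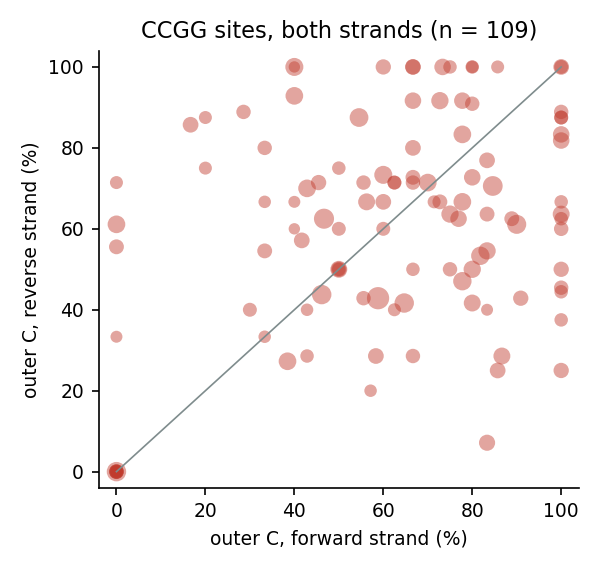
Outer C methylation (%) on the forward and the reverse strand of 109 CCGG sites with at least 5 reads at both, with point area in proportion to reads and the line of equal levels. Points scatter widely about the line, and 7 sites are at 20% or less on both strands.

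The strands of CCGG agreed on average and scattered site by site. Over 109 CCGG with at least 5 reads at both outer cytosines, the forward strand stood at 61.0% and the reverse at 61.3%, and the median difference was 20 percentage points. Pearson r was 0.35 and rho 0.21, as a description. On both strands 43 sites lay between 20% and 80%, 11 were at 80% or more and 7 at 20% or less, and 3 sites were at 80% or more on one strand and 20% or less on the other. By two-sided Fisher's exact test 0 sites passed adjustment over the 109 (smallest adjusted p = 0.120) and 14 had an unadjusted p under 0.05. Among the 23 with at least 10 reads on each strand, the largest differences were at nearby sites. These were 4459572 to 4459575 with 4 of 10 forward and 15 of 15 reverse reads, and 4459591 to 4459594 with 4 of 10 and 13 of 14. Both were higher on the reverse strand, and both are printed above. The CCGG between them, 4459581 to 4459584, differed less, with 6 of 10 forward and 11 of 15 reverse reads. The third was 4477266 to 4477269, with 8 of 10 forward and 5 of 12 reverse reads.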

How the data were processed

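Per the file headers, the deposited map gives each cytosine's chromosome, strand base, position, context, following base, methylation level and read counts. The authors' methylated and total read counts are raw, and the deposited level is a fraction that equalled methylated over total reads at every row (0 differed by more than 1e-06). CASAVA, BWA 0.6.1 and B73 RefGen_v3 are named in the submitters' processing notes, with no role. The sources used here do not name the methylation caller, the treatment of duplicate or multi-mapped reads, the conversion rate or the base from which positions count. Repeat copies and differences of the plant from the reference can therefore enter any level.

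Levels were pooled as methylated over total reads at cytosines with at least 5 reads, with Wilson 95% intervals; a count of 0 allows up to 3 counts. The inner CG is the row at the next position on the strand. Fisher's exact tests were adjusted by Benjamini-Hochberg over all CHG cytosines or all windows tested. On simulated counts for the CHG test at the real depths (4870 cytosines, 200 CCG changed to 5% against 95%), 49.5% were found, 91.5% of the 71 with at least 10 reads at both cytosines, and 0 of 4670 unchanged ones were called. The simulated gap was wider than the observed median pair difference of 36.4 percentage points, and outer and inner counts were drawn independently. Recovery at the observed differences was not tested. Neighbouring bases were taken from listed rows and their contexts, which gave 71321 bases with 0 conflicts. Sequences were written from those bases, without a genome.

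Named windows are the 3 highest and lowest by outer level and by difference (at least 20 CCG), named 1 kb bins the 3 highest and lowest (at least 8 pairs), named pairs the 5 smallest p-values each way, and named CCGG sites the 3 largest strand differences (at least 10 reads). Members and comparisons were chosen with earlier results of these data known. Alternatives were coverage minimums of 3, 10 and 20, single strands, leaving out the 1% deepest cytosines or the outermost 10 kb, unweighted means, 5 and 20 kb windows, pairs with equal totals, and partner distances of 20 and 100 bp. Tests ran in scipy 1.17.1 and figures in matplotlib 3.10.9, under Python 3.11.15 with pandas 2.3.3 and numpy 2.4.6.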

Additional observations from a re-analysis of the deposited data

How the results depend on the processing

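No pairing of samples was possible because there was 1 methylation library. The pairing of reads at adjacent outer and inner cytosines was not used by the site test. Of the 98 recomputed values, 64 stayed within the counting interval of the reported value or within 1.5 times its count. No recomputed difference between levels turned direction. The levels, shares, counts and SDs have no direction, so they could not turn. The outer level was 50.4% with a minimum of 3 reads and 52.2% on the forward strand. The inner level was 87.1% with a minimum of 3, 89.8% with 10, 89.5% on the forward and 88.2% on the reverse strand. Their difference was 39.0 percentage points with a minimum of 10 reads, and 39.6 without pairs at 0 inside, a setting chosen after seeing the data. Single strands, with fewer pairs tested, gave 39 and 56 pairs called lower. The pair called higher lies on the forward strand in the last 10 kb, so 0 were called on the reverse strand or without the outermost 10 kb. CCG was called lower in 14 of 14 windows with at least 10 reads and in 14 of 14 windows of 20 kb. The SD of window levels, which has no counting interval, was 14.4 with a minimum of 3 reads, 8.95 with 10 (14 windows), 13.2 without the 1% deepest cytosines, 9.82 on the forward and 14.4 on the reverse strand, 13.4 without the outermost 10 kb, and 14.0 and 14.5 in 5 and 20 kb windows. A following C went with a level lower by -19.5 percentage points (difference) on the forward and -13.5 on the reverse strand, and a preceding G with -7.25 on the forward strand and -6.61 at sites with the inner CG at 100%. These comparisons and the minimum of 5 reads for site shares were added after seeing the data. With minimums of 3, 5 and 20 reads, the share of sites at 20% or less was 23.2%, 18.6% and 12%, that in between 56.3%, 61.7% and 80%, and that at 80% or more 20.4%, 19.7% and 8%. Depth limits the site tests, since 951 of 1443 CCG pairs had enough reads to pass if fully opposite, and the rest could not pass. The cause of the other moves was not tested.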

Other observations

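CHH methylation near CCG went with a higher outer level only at its upper end. CHH cytosines lie outside both symmetric contexts, and they were counted within 50 bp on either strand around the 1277 pairs that had at least 50 CHH reads there. The outer level was 51.1% in 344 pairs with no methylated CHH read (Wilson 95% interval 49.3 to 52.9), 51.5% in 828 pairs with CHH above 0 and up to 5% (50.4 to 52.6), and 59.8% in 105 pairs with CHH above 5% (56.7 to 62.9). The inner CG stood at 86.9%, 90.5% and 91.9% in those classes. The classes were set after the data were seen, and no test was made.

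Outer levels changed little with the depth of the cytosine, at 52.0% for 5 to 9 reads (978 sites, 50.8 to 53.2), 50.7% for 10 to 19 reads (449 sites, 49.4 to 52.0) and 49.6% for 20 or more (25 sites, 45.5 to 53.8).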
